A study of Homo sapiens with 6 samples.

Results

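The enzymes that build the N-glycan precursor, transfer it to proteins and trim and branch it afterwards were followed in pancreatic cancer cells with a lowered level of LRRC8A. The set holds 49 genes, from the dolichol carrier to the Golgi branching enzymes, out of 20345 genes in the deposited table. It was drawn up because ALG5 and GANAB were higher in the LRRC8A shRNA libraries, so the values of ALG5 and GANAB are given here as a description and carry no test. All 49 genes were found in the table and all 49 passed the filter on low counts, among 13551 genes tested.

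RNA-seq was done on SW1990 cells, a human pancreatic cancer line, to ask what LRRC8A, a subunit of the volume-regulated anion channel, does in them. The LRRC8A shRNA cells carried a hairpin against LRRC8A and the control shRNA cells a non-targeting hairpin, with 3 libraries in each group and 6 in all. Both hairpins were delivered by lentivirus in the pLKO.1 vector, and puromycin selection gave stable lines, so both groups share the vector and the drug. The labels name 1 LRRC8A hairpin and 1 batch. They do not say whether the replicates of a group came from separate transductions, so the p-values measure the spread between these libraries, which may be cultures of the same line.

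The libraries held 37295187 to 42937612 counts in LRRC8A shRNA cells and 37052641 to 37565017 counts in control shRNA cells. Mitochondrially encoded genes took 4.55% to 6.53% of the counts in LRRC8A shRNA libraries and 4.78% to 5.53% in control shRNA libraries. LRRC8A itself had 40.8, 37.8 and 41.6 CPM (counts scaled by library size and TMM factors) in the LRRC8A shRNA libraries, against 81.2, 73.8 and 71.7 CPM in the control shRNA libraries. Its log2 fold change was -0.92 (SE 0.06, adjusted p = 1.46e-08 by edgeR), so the labels and the targeted gene point the same way. The 6 ductal epithelial markers examined were all at 1 FPKM or more, and their summed level was 5212 to 5713 FPKM in LRRC8A shRNA libraries, against 6467 to 6867 FPKM in control shRNA libraries. Leukocyte, fibroblast and endothelial markers summed to at most 0.241, 0.187 and 0.0332 FPKM in LRRC8A shRNA libraries, and to at most 0.183, 0.194 and 0.0413 FPKM in control shRNA libraries. Of 4 exocrine pancreas markers 2 were at 0 in every library and 1 reached 1 FPKM, and their sum was 10.4 to 14.9 FPKM in LRRC8A shRNA libraries and 15.9 to 19.0 FPKM in control shRNA libraries. All 3 endocrine markers were at 0. The part of the lower ductal and exocrine marker sums in the values below was not tested.

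N-glycans are assembled on dolichol, a long lipid of the endoplasmic reticulum (ER) membrane, first on the cytosolic face and then, after the lipid is flipped, in the lumen. The finished oligosaccharide, capped by glucoses, is moved as a block onto asparagines of new proteins by the oligosaccharyltransferase. Glucosidases and mannosidases then trim it while lectins check protein folding, and Golgi enzymes rebuild it into the branched glycans of secreted and membrane proteins, which are altered in many carcinomas.

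A 7-base word, GTGTCAC, was read in the annotated 3′ UTRs, because earlier results of these data had shown it to be frequent in genes that were higher in LRRC8A shRNA cells. It was searched on the sense strand only. Counting genes with a 3′ UTR in the annotation, 32.2% of the 236 that were higher held it, 10.5% of the 344 that were lower and 10.1% of the 12487 without a call. Among the N-glycan genes 8 of 49 held it (16.3%), against 10.5% of all 13067 tested genes with a 3′ UTR. ALG5 was one of them, and its site is shown beside those of genes of the set that were not called, to let the surrounding bases be compared. The word is in capitals with 10 bases on each side, 5′ to 3′ on the gene's own strand, from the GENCODE 29 transcripts.
ALG5: ttatgcttcaGTGTCACatttcatttc
MAN1B1: ccacgccagaGTGTCACttcctggctc
MAGT1: cggtctcgctGTGTCACacaggctgga
UGGT1: gcatgtcctgGTGTCACtcattgcctc
MGAT5: gactgggtttGTGTCACtgctcattac
In GRCh38 the word lies at chr13:36949899-36949905 on the minus strand in ALG5, where it starts at base 37 of a 3′ UTR of 167 bases. It lies at chr9:137108042-137108048 on the plus strand in MAN1B1, at base 80 of an annotated 3′ UTR of 180 bases. The longest annotated 3′ UTR of MAN1B1 has 596 bases. The other sites shown are at chrX:77828544-77828550 (minus strand) in MAGT1, chr2:128192146-128192152 (plus strand) in UGGT1 and chr2:134451919-134451925 (plus strand) in MGAT5. MGAT4A and ALG10B also held the word and were not called. TUSC3, which was lower (log2 fold change -0.80, SE 0.20) and whose site is not shown, held the word too. GANAB, whose longest annotated 3′ UTR has 989 bases, did not hold it. A match to these letters is a description of the annotated sequence and shows no binding.

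Across the set most genes were at nearly the same level in both groups. In these bulk libraries fewer cells with an mRNA and less of it per cell cannot be told apart. With an adjusted p under 0.05 (edgeR, Benjamini-Hochberg over 13551 genes), 2 genes were higher, ALG5 and GANAB, 1 was lower, TUSC3, and 46 were not called. Over all tested genes 590 were called (4.35%), of which 240 were higher (1.77%) and 350 lower (2.58%). The share in the set was 6.12%, and it was 2.13% for the 47 genes other than ALG5 and GANAB. The set was drawn up with this contrast in view, because ALG5 and GANAB were higher. Their calls restate that choice, and nothing is read from the count of the set. An unadjusted p under 0.05 was reached by 8 of the 49 genes (16.3%), against 18.3% of all tested genes. The libraries of the groups did not overlap for 12 of the 49 (24.5%), against 23.6% of all tested genes.

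The median log2 fold change of the 49 genes was -0.0077, and it was 0.00079 over all tested genes. Its median size was 0.041 in the set and 0.087 over all tested genes. The 46 genes that were not called had log2 fold changes of -0.23 to 0.14 with a median SE of 0.054. For 40 of them the whole 95% confidence interval lay within a change of 1.2-fold either way, and the widest interval, that of ALG10B, ran from -0.46 to 0.27. The heat map by library shows ALG5, GANAB and TUSC3 as the rows in which the groups separate in colour.

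**Figure D1:**
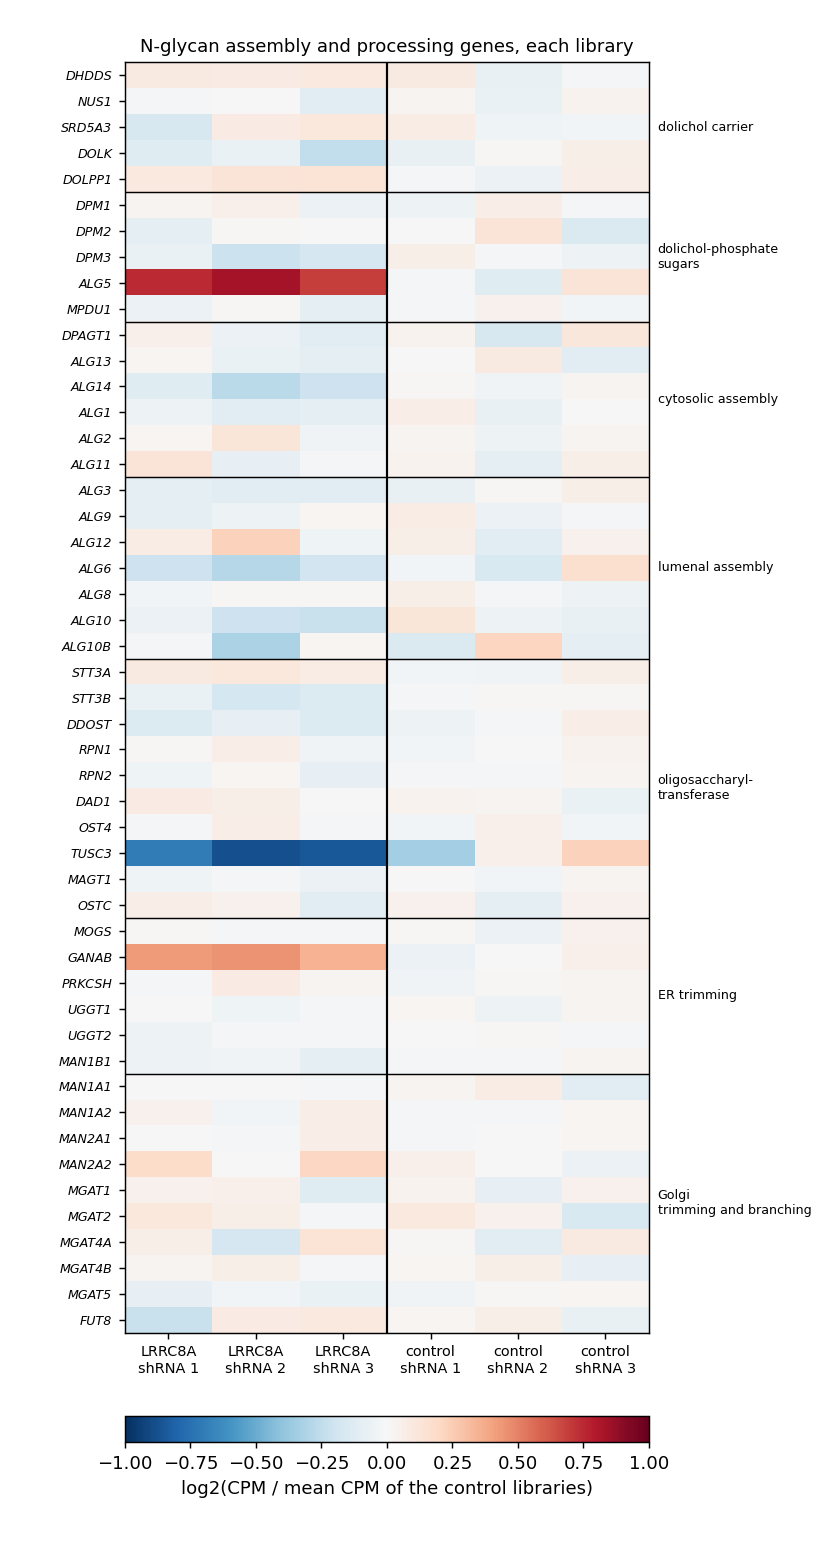
Heat map of the 49 N-glycan genes (rows, ordered by stage) in each library (columns, LRRC8A shRNA left, control shRNA right), coloured by log2 of the CPM over the mean CPM of the control shRNA libraries. ALG5 and GANAB are red in all 3 LRRC8A shRNA libraries and TUSC3 is blue in them, while most other rows stay pale.

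The dolichol carrier is made by 5 genes of the set, and none was called. DHDDS and NUS1, which form the cis-prenyltransferase that builds the polyprenol chain, had log2 fold changes of 0.09 (SE 0.06) and -0.04 (SE 0.05). SRD5A3, needed to turn polyprenol into dolichol, stood at 4.88 ± 0.865 FPKM in LRRC8A shRNA libraries and 4.72 ± 0.261 FPKM in control shRNA libraries (SD, n = 3 each). DOLK, the dolichol kinase, had a log2 fold change of -0.14 (SE 0.08, adjusted p = 0.346 by edgeR). DOLPP1, a phosphatase that recycles dolichyl pyrophosphate, had 35.3, 36.2 and 36.3 CPM in LRRC8A shRNA libraries, against 32.7, 31.8 and 34.6 CPM in control shRNA libraries. All its LRRC8A shRNA values lay above the control shRNA values, but the difference did not pass the test (log2 fold change 0.12, SE 0.06, and adjusted p = 0.295 by edgeR).

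The sugars used in the lumen are carried on dolichol phosphate. ALG5, the synthase of dolichol-phosphate glucose, lies in GRCh38 on chromosome 13 (36949775 to 37000261, minus strand; ENSG00000120697). It had 67.2, 71.1 and 64.4 CPM in LRRC8A shRNA libraries, against 39.6, 36.8 and 43.6 CPM in control shRNA libraries. The lowest LRRC8A shRNA library stood above the highest control shRNA library by more than the spread within either group. The fold was 1.69 with a 95% confidence interval of 1.54 to 1.85, which is a log2 fold change of 0.76 (SE 0.06). With each library left out in turn the log2 fold change lay between 0.70 and 0.83. In length-scaled units ALG5 had 52.4 ± 3.16 FPKM in LRRC8A shRNA libraries and 30.7 ± 3.02 FPKM in control shRNA libraries (SD, n = 3 each).

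ALG5 overlaps EXOSC8, an exosome subunit gene on the opposite strand, over 1446 bases of its span but over 0 exon bases. EXOSC8 had 105 ± 3.17 CPM in LRRC8A shRNA libraries and 101 ± 5.54 CPM in control shRNA libraries (SD, n = 3 each; log2 fold change 0.06, edgeR adjusted p = 0.595). None of the 75-base stretches of the longest protein-coding ALG5 transcript is shared with another gene of that annotation.

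Dolichol-phosphate mannose is made by the complex of DPM1, its catalytic subunit, with DPM2 and DPM3, which hold it in the membrane. Their log2 fold changes were 0.0062 (SE 0.05), -0.03 (SE 0.07) and -0.15 (SE 0.08). DPM3 had 15.1, 13.6 and 14.0 CPM in LRRC8A shRNA libraries, against 16.4, 15.6 and 15.2 CPM in control shRNA libraries. The DPM3 groups did not overlap, and the test was not passed (edgeR adjusted p = 0.379). MPDU1, needed for the use of both dolichol-phosphate sugars, had a log2 fold change of -0.05 (SE 0.05). The FPKM ratio of ALG5 to DPM1, the synthases of the glucose and the mannose donor, was 0.804, 0.875 and 0.836 in LRRC8A shRNA libraries. It was 0.518, 0.444 and 0.576 in control shRNA libraries. DPM1 itself hardly differed, so this ratio restates the difference in ALG5 by which the set was chosen. ALG5 stayed below DPM1 in every library.

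**Figure D2:**
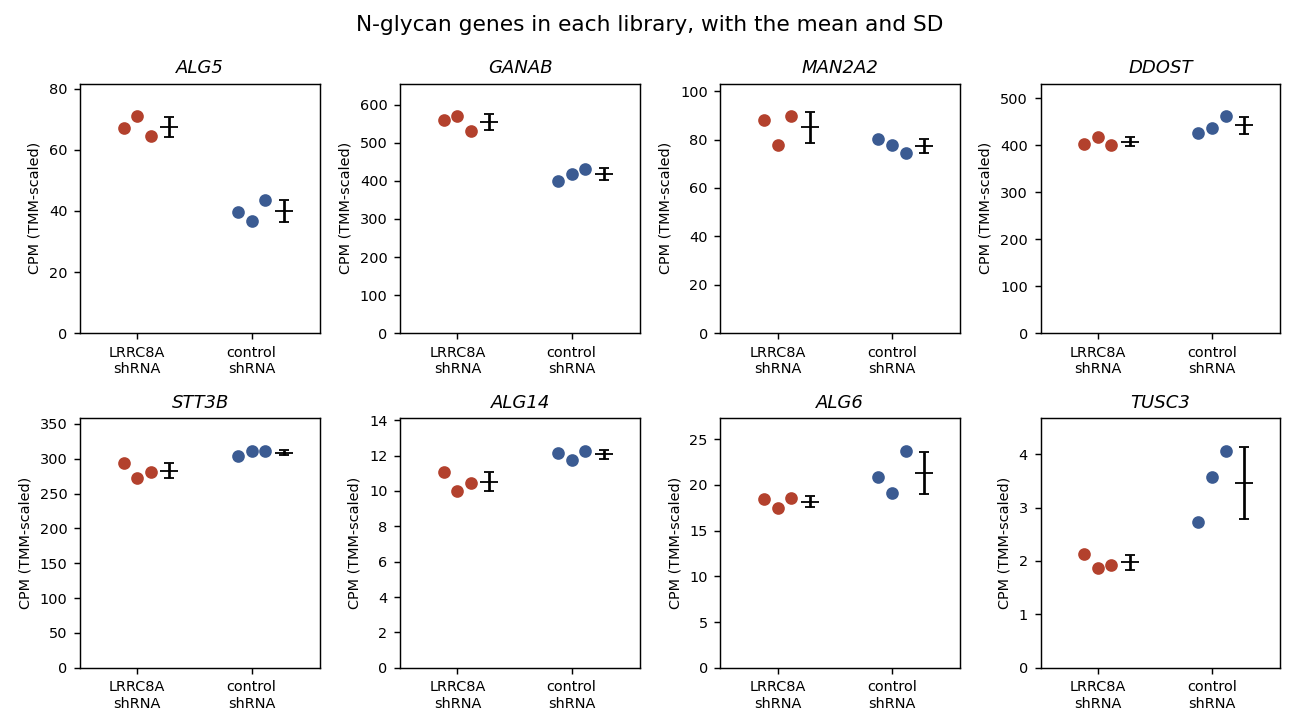
CPM of the 8 genes of the set with an unadjusted p under 0.05, 1 point per library, LRRC8A shRNA in red on the left and control shRNA in blue on the right of each panel; bars give the mean ± SD (n = 3), and each axis starts at 0. The groups overlap in MAN2A2 and in none of the other 7 panels, and TUSC3 lies under 5 CPM in every library.

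On the cytosolic face 6 genes build the first sugars, and none was called. DPAGT1, which adds the first sugar phosphate to dolichol phosphate and is the target of tunicamycin, had a log2 fold change of -0.04 (SE 0.07). ALG13 and ALG14 together add the second N-acetylglucosamine. ALG13 had a log2 fold change of -0.04 (SE 0.06). ALG14, the membrane anchor of the pair, had 11.1, 10.0 and 10.5 CPM in LRRC8A shRNA libraries, against 12.2, 11.8 and 12.3 CPM in control shRNA libraries. All 3 LRRC8A shRNA libraries were below the control shRNA libraries, with an unadjusted p = 0.0485 and an edgeR adjusted p = 0.270 (log2 fold change -0.20, SE 0.09).

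The mannoses of the cytosolic face are added by ALG1, ALG2 and ALG11, with log2 fold changes of -0.08 (SE 0.06), 0.04 (SE 0.05) and 0.02 (SE 0.07). The counts of ALG1 and ALG11 are uncertain. Of the 75-base stretches of the longest protein-coding ALG11 transcript 90.5% also occur in UTP14C. Of those of ALG1 41.3% occur in other genes, and 34.7% in NAGPA-AS1, a non-coding gene. For NUS1 and ALG9 the shares were smaller, 11.6% with NUS1P1, a pseudogene, and 11.6% with AP001781.2.

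In the lumen 7 genes finish the precursor, and none was called. ALG3, ALG9 and ALG12 add mannoses from dolichol-phosphate mannose, and had log2 fold changes of -0.11 (SE 0.06), -0.04 (SE 0.06) and 0.09 (SE 0.08). ALG3 had 32.6, 32.2 and 32.4 CPM in LRRC8A shRNA libraries, against 33.1, 35.1 and 36.2 CPM in control shRNA libraries, without overlap (edgeR adjusted p = 0.377).

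The glucoses are then added by ALG6, ALG8 and ALG10 with its copy ALG10B, which draw on the product of ALG5. ALG6, which adds the first of them, had 18.4, 17.5 and 18.6 CPM in LRRC8A shRNA libraries, against 20.9, 19.2 and 23.7 CPM in control shRNA libraries. Each LRRC8A shRNA value was below each control shRNA value. The unadjusted p was 0.0142 and the edgeR adjusted p = 0.141 (log2 fold change -0.23, SE 0.08). ALG8 had 41.8 ± 0.614 CPM in LRRC8A shRNA libraries and 41.8 ± 1.70 CPM in control shRNA libraries (SD, n = 3 each).

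ALG10 had 11.0, 9.90 and 9.78 CPM in LRRC8A shRNA libraries, against 12.4, 11.0 and 10.9 CPM in control shRNA libraries, and the groups overlapped. ALG10B had 3.71, 3.02 and 3.82 CPM in LRRC8A shRNA libraries, against 3.40, 4.36 and 3.52 CPM in control shRNA libraries, also with overlap. Both copies attach the terminal glucose, which the oligosaccharyltransferase recognises. Their log2 fold changes were -0.16 (SE 0.10, adjusted p = 0.422 by edgeR) and -0.09 (SE 0.17, adjusted p = 0.834 by edgeR). They share sequence, with 14.7% of the 75-base stretches of ALG10 also in ALG10B, so reads could have been counted for either copy. None of the 4 glucosyltransferases downstream of ALG5 was called.

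**Figure D3:**
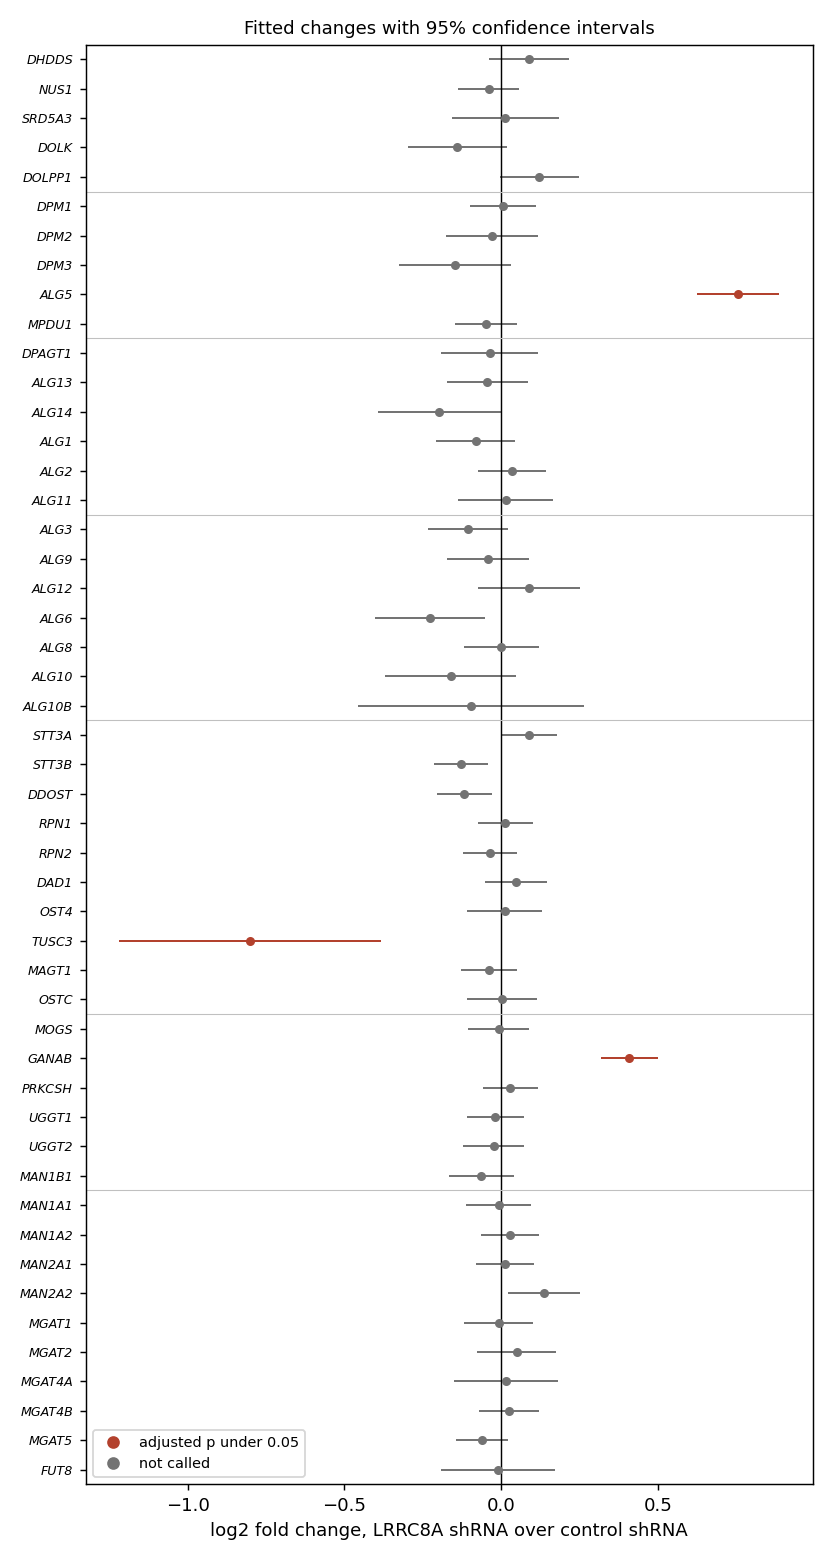
Fitted log2 fold change (LRRC8A shRNA over control shRNA) of each of the 49 genes with its 95% confidence interval, in the order of the pathway from top to bottom; red marks an adjusted p under 0.05. The intervals of ALG5 and GANAB, the genes by which the set was chosen, lie to the right of 0. That of TUSC3 lies to the left and is wide, at -1.22 to -0.38.

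The oligosaccharyltransferase exists as complexes built on either of a pair of catalytic subunits. STT3A works on chains entering the ER, and STT3B takes sites that STT3A passes over. STT3A had 158, 160 and 157 CPM in LRRC8A shRNA libraries, against 146, 145 and 155 CPM in control shRNA libraries. STT3B had 294, 273 and 281 CPM in LRRC8A shRNA libraries, against 304, 311 and 311 CPM in control shRNA libraries. The groups did not overlap for either gene, with STT3A above and STT3B below the control shRNA values, and neither passed the test. The log2 fold change was 0.09 (SE 0.04, adjusted p = 0.285 by edgeR) for STT3A and -0.13 (SE 0.04, adjusted p = 0.0908 by edgeR) for STT3B. The FPKM ratio of STT3A to STT3B overlapped between the groups, at 0.550, 0.632 and 0.599 in LRRC8A shRNA libraries and 0.515, 0.577 and 0.481 in control shRNA libraries.

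STT3B complexes hold an oxidoreductase subunit, which is either MAGT1 or TUSC3. TUSC3 (ENSG00000104723; GRCh38, chromosome 8, 15417215 to 15766649, plus strand) had 93, 70 and 72 counts in LRRC8A shRNA libraries, against 101, 132 and 151 counts in control shRNA libraries. In scaled units these were 2.13, 1.87 and 1.92 CPM in LRRC8A shRNA libraries and 2.72, 3.57 and 4.06 CPM in control shRNA libraries. All 3 LRRC8A shRNA libraries were below the control shRNA libraries, whose own values were widely spread.

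TUSC3 fell by 0.80 on the log2 scale (SE 0.20, adjusted p = 0.0262 by edgeR), with a 95% confidence interval of -1.22 to -0.38. That call was kept in 1 of the 6 fits that left out a library, the fit without control replicate 1. The edgeR adjusted p was 0.0676, 0.0769 and 0.0681 without LRRC8A shRNA replicate 1, 2 or 3. It was 0.0992 and 0.134 without control replicate 2 or 3. The gene's annotated 3′ UTR also holds the word GTGTCAC.

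MAGT1 was the more abundant of the pair, with 112, 114 and 111 CPM in LRRC8A shRNA libraries against 115, 114 and 118 CPM in control shRNA libraries. Its groups overlapped, and its log2 fold change was -0.04 (SE 0.04, adjusted p = 0.700 by edgeR). The FPKM ratio of MAGT1 to TUSC3 was 20.0, 42.4 and 36.2 in LRRC8A shRNA libraries and 17.7, 13.9 and 13.5 in control shRNA libraries. The ratio was thus above 10 in every library and did not overlap between the groups, but LRRC8A shRNA replicate 1 stood close to control replicate 1.

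The subunits common to both complexes were among the most abundant mRNAs of the set. DDOST had 403, 419 and 402 CPM in LRRC8A shRNA libraries, against 427, 438 and 462 CPM in control shRNA libraries. The DDOST groups did not overlap, but the test was not passed (log2 fold change -0.12, SE 0.04, unadjusted p = 0.0108 and adjusted p = 0.123 by edgeR). Its counts are uncertain in part, since 17.2% of its 75-base stretches occur in PINK1-AS. The ribophorins RPN1 and RPN2 and the small subunits DAD1 and OST4 had log2 fold changes of 0.01 (SE 0.04), -0.04 (SE 0.04), 0.05 (SE 0.05) and 0.01 (SE 0.06). OSTC, which belongs to the STT3A complex, had a log2 fold change of 0.0031 (SE 0.05).

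Trimming in the ER starts with the removal of the glucoses. MOGS, glucosidase I, takes off the outermost one and had a log2 fold change of -0.0072 (SE 0.05). GANAB, the catalytic subunit of glucosidase II, which removes the inner ones, lies in GRCh38 on chromosome 11 (62624826 to 62646726, minus strand; ENSG00000089597). It had 562, 571 and 531 CPM in LRRC8A shRNA libraries, against 401, 419 and 432 CPM in control shRNA libraries. Its groups were separated by more than the range within either.

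The GANAB fold was 1.33 with a 95% confidence interval of 1.25 to 1.41, a log2 fold change of 0.41 (SE 0.04). Without each library in turn it lay between 0.38 and 0.44. GANAB overlaps no other annotated gene, and none of its 75-base stretches occurs elsewhere.

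PRKCSH, the beta subunit that keeps glucosidase II in the ER, had 250, 269 and 259 CPM in LRRC8A shRNA libraries, against 249, 256 and 259 CPM in control shRNA libraries. Its groups overlapped, and its log2 fold change was 0.03 (SE 0.04, adjusted p = 0.768 by edgeR). The FPKM ratio of GANAB to PRKCSH was 1.33, 1.22 and 1.21 in LRRC8A shRNA libraries and 0.946, 0.931 and 0.998 in control shRNA libraries. GANAB mRNA thus stood above PRKCSH mRNA per length in all 3 LRRC8A shRNA libraries and just below it in all 3 control shRNA libraries. The FPKM ratio of GANAB to MOGS was 5.13, 5.88 and 5.44 in LRRC8A shRNA libraries and 3.80, 3.96 and 4.09 in control shRNA libraries. Both ratios restate the difference in GANAB by which the set was chosen, since PRKCSH and MOGS hardly differed.

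UGGT1, the folding sensor that puts a glucose back on misfolded proteins, and its relative UGGT2 had log2 fold changes of -0.02 (SE 0.04) and -0.02 (SE 0.05). MAN1B1, the ER mannosidase, had 57.0, 57.6 and 55.1 CPM in LRRC8A shRNA libraries, against 58.4, 58.7 and 60.3 CPM in control shRNA libraries. The MAN1B1 groups did not overlap, but the test was not passed (log2 fold change -0.06, SE 0.05, and adjusted p = 0.540 by edgeR). By limma on log2(FPKM + 1) its log2 fold change had the other sign, at 0.011.

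None of the 10 Golgi genes was called, and in CPM their groups overlapped in every case. MAN1A1 and MAN1A2, which trim mannoses, had log2 fold changes of -0.0074 (SE 0.05) and 0.03 (SE 0.04). MGAT1, which starts the first branch, had -0.0077 (SE 0.05). The alpha-mannosidases II, MAN2A1 and MAN2A2, trim the glycan after MGAT1. MAN2A1 had a log2 fold change of 0.01 (SE 0.04). MAN2A2 had 88.0, 77.9 and 89.7 CPM in LRRC8A shRNA libraries, against 80.2, 77.8 and 74.5 CPM in control shRNA libraries.

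LRRC8A shRNA replicate 2 of MAN2A2 lay within the control shRNA range and the other LRRC8A shRNA libraries above it. Its log2 fold change was 0.14 (SE 0.05, unadjusted p = 0.0224 and adjusted p = 0.179 by edgeR). Without LRRC8A shRNA replicate 2 the log2 fold change was 0.20 and the edgeR adjusted p = 0.0418.

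The branching enzymes MGAT2, MGAT4A, MGAT4B and MGAT5 had log2 fold changes of 0.05 (SE 0.06), 0.02 (SE 0.08), 0.02 (SE 0.05) and -0.06 (SE 0.04). MGAT5 makes the branch that carries polylactosamine and is often raised in carcinomas. It had 352, 366 and 355 CPM in LRRC8A shRNA libraries and 364, 376 and 378 CPM in control shRNA libraries, with overlap. FUT8, which adds the core fucose, had a log2 fold change of -0.0098 (SE 0.09). MGAT2 shares 91.9% of its exon bases with an antisense gene, and whether the counting used strand is not given in the sources used here. An opposite-strand gene also covers 42.2% of the exon bases of ALG10, 39.0% of ALG12, 21.3% of DPAGT1 and 21.0% of OST4. For ALG1, DPM2 and FUT8 the share was 20.1%, 19.2% and 12.3%. MGAT4B shares 1.91% of its exon bases with SQSTM1 on the opposite strand, an autophagy receptor gene that rose by 0.29 on the log2 scale (SE 0.06, adjusted p = 0.00966 by edgeR).

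Levels per length, in the authors' FPKM, spanned a wide range along the pathway. The medians over the genes of a stage were 13.7 FPKM in LRRC8A shRNA libraries and 12.8 FPKM in control shRNA libraries for the dolichol carrier. For the dolichol-phosphate sugars they were 52.4 FPKM in LRRC8A shRNA libraries and 31.8 FPKM in control shRNA libraries, where ALG5 is the median gene in LRRC8A shRNA libraries and DPM3 in control shRNA libraries. The cytosolic assembly genes had medians of 14.8 FPKM in both groups, and the lumenal assembly genes 5.12 FPKM in LRRC8A shRNA and 5.91 FPKM in control shRNA libraries. The oligosaccharyltransferase had the highest stage median, 87.7 FPKM in LRRC8A shRNA and 86.0 FPKM in control shRNA libraries.

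ER trimming had a median of 22.4 FPKM in LRRC8A shRNA and 22.7 FPKM in control shRNA libraries, and the Golgi stage 17.3 FPKM in LRRC8A shRNA and 17.0 FPKM in control shRNA libraries. RPN1 reached 192 ± 6.54 FPKM in LRRC8A shRNA libraries and 187 ± 3.81 FPKM in control shRNA libraries (SD, n = 3 each), and DDOST 176 ± 2.33 FPKM in LRRC8A shRNA libraries and 190 ± 9.14 FPKM in control shRNA libraries. These neighbours in the order did not differ beyond their spread in the control shRNA libraries. At the low end TUSC3 had 0.832 ± 0.359 FPKM in LRRC8A shRNA libraries and 1.68 ± 0.241 FPKM in control shRNA libraries (SD, n = 3 each). ALG14 had 1.27 ± 0.149 FPKM in LRRC8A shRNA libraries and 1.39 ± 0.402 FPKM in control shRNA libraries. ALG10B had 1.24 ± 0.184 FPKM in LRRC8A shRNA libraries and 1.33 ± 0.267 FPKM in control shRNA libraries. In the plot of levels by stage the groups of ALG5 and GANAB do not overlap, nor do those of several other genes, DDOST, STT3B and MGAT5 among them.

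**Figure D4:**
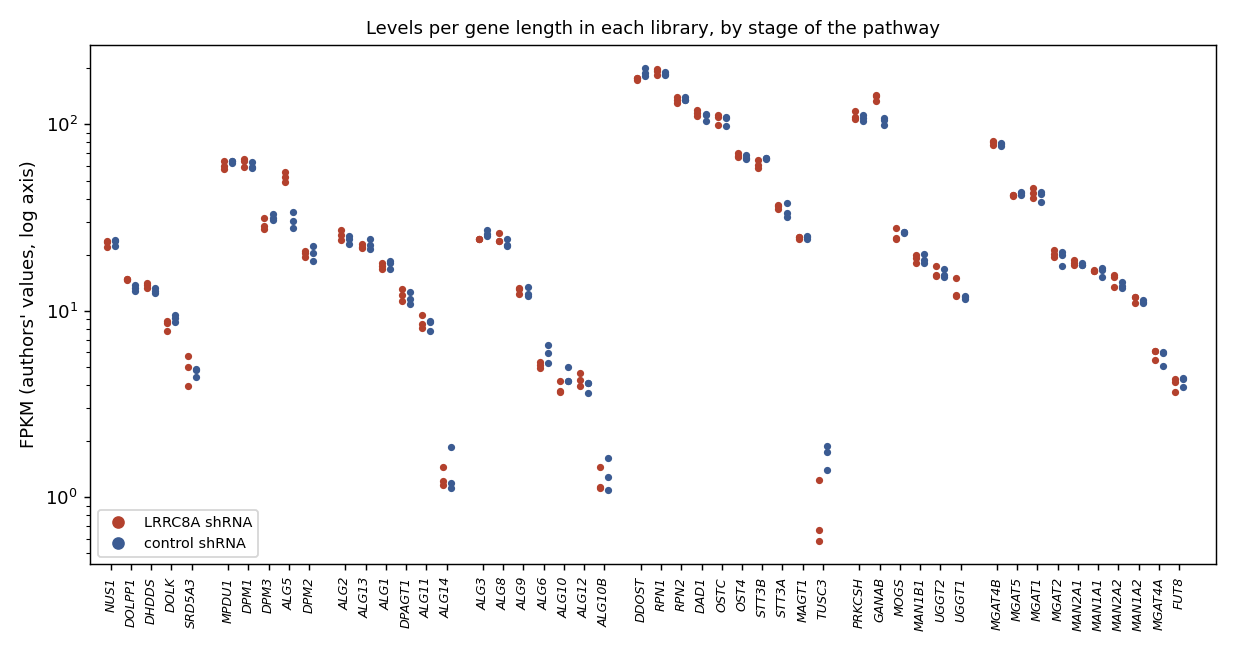
FPKM of the 49 genes on a log axis, 1 point per library, with LRRC8A shRNA in red to the left and control shRNA in blue to the right for each gene; genes are grouped by stage and sorted by their control shRNA mean within a stage. The oligosaccharyltransferase subunits reach 192 FPKM, and TUSC3, ALG14 and ALG10B lie near 1 FPKM.

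Other genes that feed or use the pathway were described from 6 lists holding 129 genes, of which 123 were tested. In all 6 were higher and 1 was lower (5.69% called, beside 4.35% of all tested genes). Of 27 genes of nucleotide sugar supply, 3 rose, 1 fell and 23 did not pass (14.8% called, beside 4.35% of all tested genes). Their median log2 fold change was -0.00022. An unadjusted p under 0.05 by edgeR was reached by 33.3% of them, against 18.3% of all tested genes. The groups did not overlap for 37.0%, against 23.6% of all tested genes. The list was chosen with earlier results of these data known, so nothing is read from these shares.

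UAP1L1, a relative of the enzyme that makes UDP-N-acetylglucosamine, had 10.7, 10.2 and 8.04 CPM in LRRC8A shRNA libraries, against 5.75, 5.74 and 4.87 CPM in control shRNA libraries (log2 fold change 0.82, SE 0.13, and adjusted p = 0.000938 by edgeR). The other higher genes belong to sialic acid synthesis. GNE, which makes N-acetylmannosamine 6-phosphate, had 78.9 ± 2.55 CPM in LRRC8A shRNA libraries and 64.7 ± 3.06 CPM in control shRNA libraries (SD, n = 3 each; log2 fold change 0.28, SE 0.05, and adjusted p = 0.00261 by edgeR). NANS, the sialic acid phosphate synthase, had 77.6 ± 2.68 CPM in LRRC8A shRNA libraries and 68.3 ± 2.85 CPM in control shRNA libraries (SD, n = 3 each; log2 fold change 0.18, SE 0.05, and adjusted p = 0.0413 by edgeR). The NANS call was kept in 1 of the 6 fits that left out a library. GMDS, which begins the synthesis of GDP-fucose, the donor used by FUT8, had 37.4 ± 1.76 CPM in LRRC8A shRNA libraries and 47.1 ± 0.343 CPM in control shRNA libraries (SD, n = 3 each). It fell by 0.33 on the log2 scale (SE 0.06, adjusted p = 0.00224 by edgeR).

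Of 18 translocon and signal peptidase genes 1 rose (5.56% called, beside 4.35% of all tested genes). TRAM1, a translocon-associated protein, had 423 ± 17.9 CPM in LRRC8A shRNA libraries and 347 ± 12.3 CPM in control shRNA libraries (SD, n = 3 each; log2 fold change 0.29, SE 0.04, and adjusted p = 0.000687 by edgeR). TMEM258, a small subunit of the oligosaccharyltransferase, had 33.5, 26.0 and 25.6 CPM in LRRC8A shRNA libraries, against 35.6, 34.2 and 34.4 CPM in control shRNA libraries. Its log2 fold change of -0.29 (SE 0.09) did not pass the test (adjusted p = 0.104 by edgeR). It was called lower by DESeq2 (adjusted p = 0.0478) and by edgeR without LRRC8A shRNA replicate 1 (adjusted p = 0.00359), the library nearest to the control shRNA values. TMEM258, like GNPTAB, MGAT3 and ST3GAL3 below, was named after its values were seen. Of 18 tested genes that use dolichol-phosphate mannose outside N-glycan assembly 1 rose (5.56% called). This was TMTC3, an O-mannosyltransferase, with 113 ± 3.88 CPM in LRRC8A shRNA libraries and 97.2 ± 2.96 CPM in control shRNA libraries (SD, n = 3 each; log2 fold change 0.21, SE 0.05, and adjusted p = 0.0115 by edgeR). Of the 6 list genes that were higher, TRAM1 and TMTC3 hold the word GTGTCAC in an annotated 3′ UTR, and UAP1L1, GNE, NANS and SERP1 do not. Among all higher genes 32.2% held the word, and 10.5% of all tested genes. List genes that were not called hold it too, B4GALT4, MPI, SEC63 and SSR1 among them. The word was taken from earlier results of these data, so nothing is read from its presence here.

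The unfolded protein response list also had 1 gene that rose among 19 (5.26% called, beside 4.35% of all tested genes). SERP1, an ER stress protein, had 250 ± 18.2 CPM in LRRC8A shRNA libraries and 214 ± 8.58 CPM in control shRNA libraries (SD, n = 3 each; log2 fold change 0.22, SE 0.05, and adjusted p = 0.0196 by edgeR). The list's median log2 fold change was -0.03, and 7 of its 19 genes had an unadjusted p under 0.05 (36.8%, beside 18.3% of all tested genes), 4 with positive and 3 with negative values. With 1 library left out, TMTC3 kept its call in 3 of 6 fits and SERP1 in 2 of 6.

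By edgeR 0 of 19 tested genes of Golgi elongation and capping were called, with 6 at an unadjusted p under 0.05 (31.6%, beside 18.3% of all tested genes) and 0 called by DESeq2. GNPTAB, needed for the lysosomal mannose tag, was called lower without LRRC8A shRNA replicate 3 (adjusted p = 0.0216 by edgeR) and without the filter on counts (0.0470). By edgeR 0 of 22 genes of ER lectins and glycoprotein disposal were called, with 3 at an unadjusted p under 0.05 (13.6%) and 0 called by DESeq2. The median log2 fold changes of the Golgi and the ER list were -0.01 and 0.04.

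**Figure D5:**
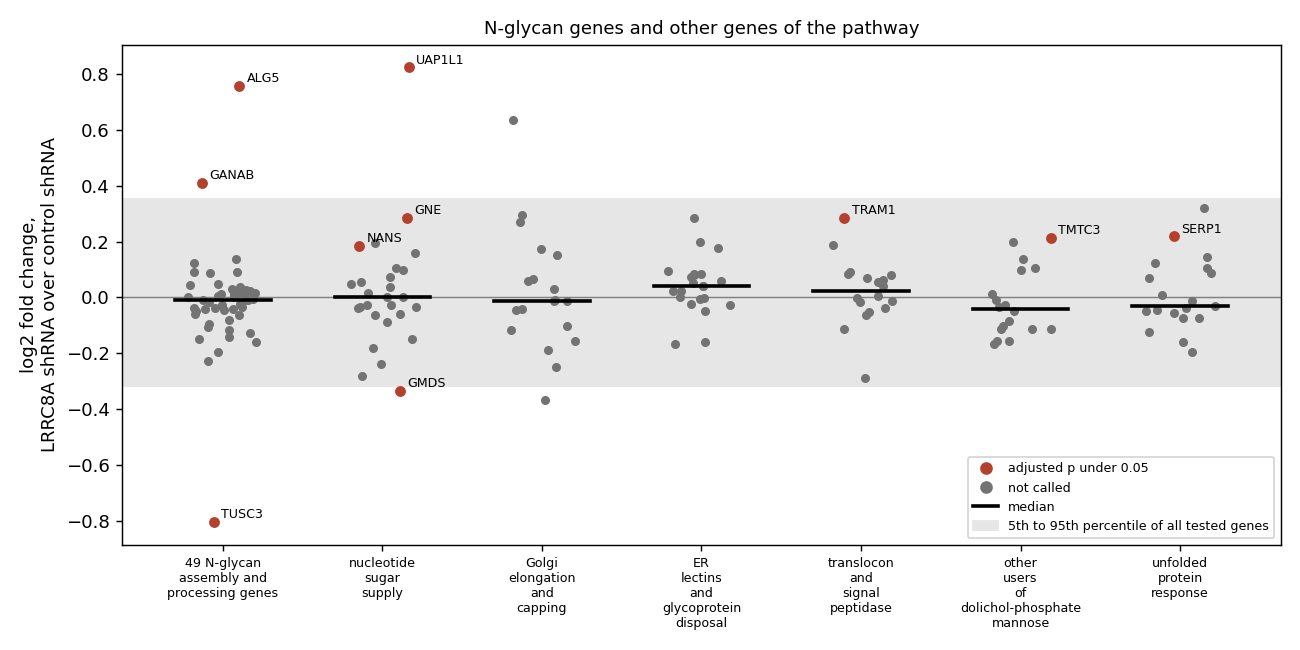
Fitted log2 fold change (LRRC8A shRNA over control shRNA) of each tested gene in the 49-gene set and in the 6 other lists, with the list median as a black bar and the range from the 5th to the 95th percentile of all tested genes (-0.32 to 0.35) in grey; red marks an adjusted p under 0.05. ALG5 and GANAB, the genes by which the set was chosen, lie above the grey range with UAP1L1, and TUSC3 and GMDS lie below it. Outside it are also 2 Golgi elongation and capping genes that were not called, MGAT3 (0.64, SE 0.76, above) and ST3GAL3 (-0.37, SE 0.17, below). MGAT3 had 109, 58 and 60 counts in LRRC8A shRNA libraries and 68, 60 and 7 counts in control shRNA libraries. Each list median lies close to 0.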

How the data were processed

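Per the labels' protocols, total RNA of SW1990 cells was extracted with Trizol and went into a TruSeq stranded kit for mRNA. The tools StringTie 2.2.3, HISAT2 2.2.1 and fastp 0.23.2 are named, per the submitters' processing notes, which list GRCh38 and a mouse build and give neither a role. The authors' deposited table gives raw read counts per gene for 20345 protein-coding genes. It also gives FPKM and TPM values, which the authors scaled for gene length and depth. TPM was read only for its sums. Which program counted the reads, and whether by strand, is not given in the sources used here.

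Counts were filtered with filterByExpr, scaled by TMM and compared with the robust quasi-likelihood test of edgeR 4.0.16 in R 4.3.3. The test was two-sided, p-values were adjusted by Benjamini-Hochberg across the 13551 tested genes, and an adjusted p under 0.05 was a call. The SE is the log2 fold change divided by the square root of F. The code was checked on simulated counts. DESeq2 1.42.0, limma 3.58.1 on log2(FPKM + 1) and the other alternatives are given below. Levels of different genes were compared in FPKM. An exact permutation test of 3 against 3 libraries cannot go below p = 0.1, so none was run.

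The members, the 6 lists and the word GTGTCAC were chosen with earlier results of these data known. The text names all members, gives library values for those with an unadjusted p under 0.05, without overlap, or compared as pairs of forms, and takes from each list the genes past the threshold. Table coordinates equal those of GENCODE 29 (GRCh38) for 100 of 19511 shared genes, so positions, overlaps and sequences come from GENCODE 29.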

Additional observations from a re-analysis of the deposited data

How the results depend on the processing

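By limma on log2(FPKM + 1) without a filter 1 gene of the set was past the threshold, and GANAB was not (adjusted p = 0.0522). The values of ALG5 and GANAB chose the set, so their calls support nothing. TUSC3 was also not called with the replicate block (adjusted p = 0.0509), without robust estimation (0.0581) or by limma on FPKM (0.0922, 0.103 and 0.200), and its 70 to 151 counts per library limit its precision. Equal replicate numbers did not deviate together (correlations 0.0277, -0.089 and 0.00508). Whether they share a culture is not given, and these correlations from 3 libraries a group cannot settle it. With the replicate block 671 genes and 2 of the set were called, against 590 and 3.

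The number of genes called was 222 at an adjusted p under 0.01, 246 to 504 with a library left out, 370 without robust estimation, 157 and 154 by limma on log2(FPKM + 1) and log2(FPKM + 0.1), and 18 by limma without a filter. It was 246 without control replicate 2, 273 without control replicate 1, 346 without control replicate 3 and 318 without LRRC8A shRNA replicate 1. Counts within the set were 2 to 3 with a library left out.

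Of 686 values recomputed for the 49 genes 65 changed sign, 43 of them with a library left out. They belong to 24 genes that were not called, with log2 fold changes of at most 0.095 in size, so the signs of their printed values depend on the setting. By limma on log2(FPKM + 1), with or without the filter, and on log2(FPKM + 0.1), the values were 0.051 and 0.055 for DPAGT1, 0.033 and 0.035 for ALG9, 0.129 and 0.138 for UGGT1, 0.028 and 0.030 for UGGT2, 0.011 and 0.012 for MAN1B1, 0.016 and 0.017 for MAN1A1, and 0.047 and 0.048 for MGAT1. Without the filter on counts ALG8 had -0.00022. The cause was not tested. With a library left out the ranges crossed 0 for 21 genes, and were -0.034 to 0.093 for SRD5A3, -0.020 to 0.040 for DPM1, -0.091 to 0.037 for DPM2, -0.11 to 0.029 for DPAGT1, -0.091 to 0.0013 for ALG13, -0.0088 to 0.070 for ALG2, -0.047 to 0.062 for ALG11, -0.021 to 0.031 for ALG8, -0.16 to 0.023 for ALG10B, -0.014 to 0.039 for RPN1, -0.014 to 0.037 for OST4, -0.045 to 0.054 for OSTC, -0.039 to 0.020 for MOGS, -0.044 to 0.0020 for UGGT1, -0.052 to 0.027 for MAN1A1, -0.013 to 0.030 for MAN2A1, -0.049 to 0.045 for MGAT1, -0.016 to 0.097 for MGAT2, -0.049 to 0.099 for MGAT4A, -0.012 to 0.054 for MGAT4B and -0.064 to 0.086 for FUT8.

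The calls of NANS, TMTC3 and SERP1 were not kept in every fit that left out a library. Their log2 fold changes in these fits were 0.15 to 0.21, 0.19 to 0.24 and 0.18 to 0.28. NANS had adjusted p-values of 0.0950 and 0.128 without LRRC8A shRNA replicate 1 or 2, and 0.10, 0.193 and 0.0655 without control replicate 1, 2 or 3. TMTC3 had 0.0592 without LRRC8A shRNA replicate 1, and 0.0635 and 0.0945 without control replicate 1 or 2. SERP1 had 0.112 and 0.0811 without LRRC8A shRNA replicate 1 or 2, and 0.103 and 0.113 without control replicate 1 or 2. With the replicate block NANS and SERP1 missed the threshold (0.0530 and 0.0736), while CALR of the ER lectin list (0.0385) and TMEM258 (0.0377) passed it as lower genes. Other list genes past the threshold in some alternatives alone were GFPT1 (higher, 0.0343 by DESeq2 and 0.00871 without LRRC8A shRNA replicate 3), FPGT (lower, 0.0437 without the filter on counts and 0.0398 with the block), DDIT3 (higher, 0.00771 without LRRC8A shRNA replicate 2 and 0.0204 with the block) and TRIB3 (lower, 0.0344 without control replicate 1). UAP1L1, GNE, GMDS and TRAM1 were called whichever library was left out, and not by limma without a filter (0.119, 0.0750, 0.0522 and 0.0938). The median log2 fold change of all genes was 0.020 by limma on log2(FPKM + 1), and nearer to 0 by DESeq2 and with its size factors.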
